A study of Mus musculus with 6 samples.

Results

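The soft palate is the posterior, muscular part of the roof of the mouth, and the regulators of its skeletal muscle programme were followed in mouse embryos. They are Pax3 and Pax7, Myf5, Myod1, Myog and Myf6, and Mef2a, Mef2c and Mef2d, chosen by name as 9 of the 21938 genes of the table. All 9 were measured, and each had a mean of at least 1 CPM (counted reads of a gene scaled to a common library total) over the 6 libraries. Tissue was taken at E14.0 from 3 mutant embryo samples, genotype Osr2-Cre;b-cateninfl/fl, numbered 5, 6 and 7, and from 3 controls, numbered 1, 2 and 3. Both groups carry floxed alleles of β-catenin according to the protocol text, although one label field calls the controls wild type, and the Cre is described for the mutants alone. Osr2, which drives the Cre, is known as a gene of palatal mesenchyme, and the series asks how canonical Wnt signalling shapes the soft palate. The labels do not say how many embryos went into a library. The p-values therefore set the groups against the spread of these 6 libraries, not against that of a known number of embryos.

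Skeletal muscle is built by an ordered cascade of transcription factors. Pax3 and Pax7 are paired-box factors of muscle progenitors, although both also act in neural crest and the neural tube. Myf5 and Myod1, basic helix-loop-helix factors that bind the E-box with an E protein as partner, commit progenitors to the myoblast fate. Myog drives myoblasts to differentiate and fuse, and Myf6 (MRF4) acts in differentiating fibres. The MEF2 proteins are MADS-box factors that work beside these 4 myogenic regulatory factors on muscle promoters, but are made in many other cells as well: Mef2c also acts in endothelium, heart, neurons, cartilage and neural crest. In the head, muscle arises from cranial mesoderm, where Pax3 has little part upstream of the myogenic factors and Tbx1, Msc and Tcf21 are among those that act instead.

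The Myog promoter is the textbook place where these families meet, and it is printed here with windows of Myf5 and Mef2c. Of the 6 genes with a window at hand, only Myog, Myf5 and Mef2c hold a match to the motifs below. Each window is the 250 bases before the RefSeq start of the gene in GRCm38.p6, in the direction of transcription. Capitals mark matches to the E-box (CANNTG), the MEF3 site (TCAGGTTTC) and a MEF2-type core (CTANNNNTA), searched on both strands with the sequences in view.
Myog, chr1:134289754-134290003, plus strand: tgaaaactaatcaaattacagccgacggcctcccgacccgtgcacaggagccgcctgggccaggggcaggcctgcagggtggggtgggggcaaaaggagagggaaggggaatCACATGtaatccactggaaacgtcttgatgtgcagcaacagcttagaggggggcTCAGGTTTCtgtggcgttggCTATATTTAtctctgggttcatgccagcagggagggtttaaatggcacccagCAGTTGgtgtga
Myf5, chr10:107486135-107486384, minus strand: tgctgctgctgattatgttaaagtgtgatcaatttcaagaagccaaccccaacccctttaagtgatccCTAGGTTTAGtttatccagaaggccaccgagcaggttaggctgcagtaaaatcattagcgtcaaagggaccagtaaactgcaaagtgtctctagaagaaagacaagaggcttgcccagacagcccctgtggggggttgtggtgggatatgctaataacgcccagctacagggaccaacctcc
Mef2c (the first of its 3 windows), chr13:83503784-83504033, plus strand: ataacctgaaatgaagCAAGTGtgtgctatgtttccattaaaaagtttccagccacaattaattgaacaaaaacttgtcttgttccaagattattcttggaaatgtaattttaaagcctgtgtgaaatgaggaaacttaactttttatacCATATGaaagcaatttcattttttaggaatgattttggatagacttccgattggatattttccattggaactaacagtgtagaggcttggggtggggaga
The Myog window holds 2 E-boxes, beginning 138 and 12 bases before the start, the MEF3 letters at 84 bases and the MEF2-type core at 64 bases, none overlapping. Of all 32851 windows of this length, 66.2% hold an E-box, 19.0% a MEF2-type core, 0.387% the MEF3 letters, and 19 windows (0.0578%) all 3. Myf5 has no E-box in its window and 2 overlapping MEF2-type matches, 1 on each strand. The first Mef2c window has 2 E-boxes and neither other motif, the second has none of the 3, and the third has 1 E-box and a MEF2-type core beginning 191 bases before its start. Windows were at hand for 6 of the 9 genes, and those of Pax7, Mef2a and Mef2d hold none of the 3 motifs. The MEF2-type pattern leaves its middle letters free, so it is looser than the A and T core of a MEF2 site. Only the Myog match has A and T alone there, and those of Myf5 and Mef2c hold G or C. The shares over all windows rest on the same loose pattern. A match describes letters and does not show a bound site.

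The libraries held about 10018682 to 15087342 counted reads, as read from the step between low values. Skeletal muscle marker RNA varied within the controls. The 13 muscle markers that are not among the 9 genes, such as Acta1, Myh3 and Ttn, summed to 4575 to 5673 CPM in mutants and to 6881 to 14486 CPM in controls, with control 2 the lowest control. None was at 0, so skeletal muscle RNA was present in every library. Ctnnb1, the targeted gene, measured 585, 633 and 582 CPM in mutants 5, 6 and 7, against 699, 784 and 671 CPM in controls 1, 2 and 3, groups that do not overlap (adjusted p = 0.183, limma). The measure covers the whole gene and all cells of the piece. In bulk tissue fewer cells of a type and less RNA per cell cannot be told apart, which holds for every value that follows.

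Of the 9 regulators, 3 fell in the mutants by limma with Benjamini-Hochberg adjustment over all genes: Pax7, Myod1 and Myog. None rose. Over the whole set of genes 0.479% were called at an adjusted p below 0.05, 0.283% lower and 0.196% higher. At an adjusted p below 0.1 there were 4 of the 9, Myf5 added, beside 4.55% of all genes. The ratio of mean CPM, mutant over control, was 0.320 for Pax7, 0.355 for Myf5, 0.368 for Myod1, 0.336 for Myog and 0.333 for Myf6. It was 1.17 for Pax3, 1.17 for Mef2a, 0.670 for Mef2c and 0.820 for Mef2d. The median log2 change of the 9 was -0.74, beside 0.04 over all genes.

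**Figure D1:**
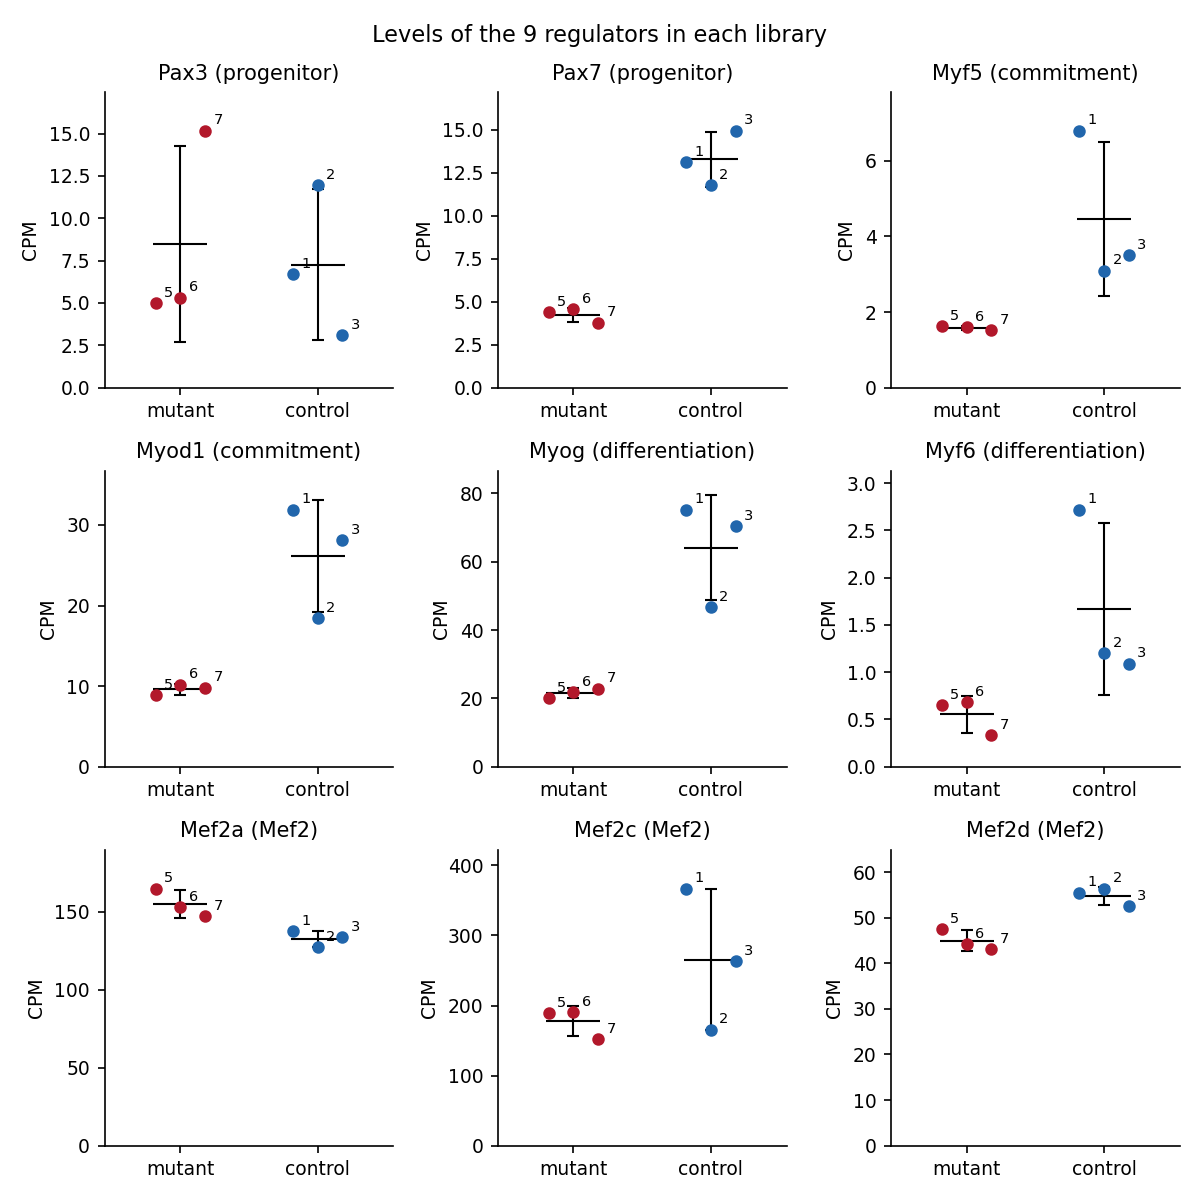
Level in CPM of each of the 9 regulators, by library, mutant left of control; points are libraries with their replicate numbers, the long bar is the group mean and the error bar the SD (n = 3 each). Pax7, Myf5, Myod1, Myog, Myf6 and Mef2d lie lower in every mutant library than in any control, Mef2a lies higher, and Pax3 and Mef2c overlap.

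Pax7, which maintains muscle progenitors and later satellite cells (chromosome 4, 139737062 to 139833528, GRCm38), measured 4.40, 4.56 and 3.78 CPM in mutants 5, 6 and 7, against 13.1, 11.8 and 14.9 CPM in controls 1, 2 and 3. The groups lie well apart. Control 2, lowest for the muscle markers, is here the lowest control as well, though closer to the others. Its log2 change on the log2(CPM + 1) scale was -1.44 ± 0.16 (SE), adjusted p = 0.0271 in limma, with a 95% interval of the fold of 0.285 to 0.475. It ranked 9 by p among all genes.

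Pax3 (chromosome 1, 78101267 to 78197134), the paralogue that in trunk and limb marks migrating progenitors, measured 4.97, 5.32 and 15.2 CPM in mutants 5, 6 and 7, against 6.72, 12.0 and 3.11 CPM in controls 1, 2 and 3. Mutant 7 and control 2 are high and the groups overlap fully. The log2 change was 0.19 ± 0.48 (SE, adjusted p = 0.851 in limma), with a 95% fold interval of 0.539 to 2.41. The sign turned to -0.24 without control 3 and to -0.28 without mutant 7. The 7 measured neural crest glia and melanocyte markers summed to 121 to 134 CPM in mutants and 131 to 161 CPM in controls, and the 8 neuronal markers to 119 to 638 CPM in mutants and 366 to 779 CPM in controls. The part of such cells in the Pax3 values was not tested.

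Of the commitment factors, Myod1 (chromosome 7, 46376474 to 46379099) measured 8.88, 10.2 and 9.81 CPM in mutants 5, 6 and 7, against 31.9, 18.5 and 28.1 CPM in controls 1, 2 and 3. The mutants lie close together and the controls spread widely, with control 2 the lowest of them. Its log2 change was -1.32 ± 0.19 (SE), adjusted p = 0.0352 in limma, with a 95% interval of the fold of 0.294 to 0.544.

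Myf5 (chromosome 10, 107482908 to 107486134) measured 1.63, 1.60 and 1.52 CPM in mutants 5, 6 and 7, against 6.80, 3.09 and 3.50 CPM in controls 1, 2 and 3. No mutant reached the lowest control, and control 1 stood well above the other 2. At an adjusted p of 0.0915 (limma, log2 change -1.02 ± 0.26, SE) it did not pass the threshold of 0.05. These levels rest on about 20, 21 and 23 reads in the mutants and on 85, 31 and 45 reads in the controls.

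Myog, the differentiation factor (chromosome 1, 134289989 to 134292548), was the most abundant of the 4 myogenic regulatory factors. It measured 20.04, 21.7 and 22.9 CPM in mutants 5, 6 and 7, against 75.3, 46.6 and 70.5 CPM in controls 1, 2 and 3. The lowest control is above every mutant by more than the whole mutant range. The log2 change was -1.50 ± 0.17 (SE), with adjusted p = 0.0276 in limma and a 95% fold interval of 0.269 to 0.463.

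Myf6 (chromosome 10, 107492853 to 107494737), 6718 bases from Myf5 on the same strand, was near the limit of what these depths measure. It stood at 0.652, 0.684 and 0.331 CPM in mutants 5, 6 and 7, which is about 8, 9 and 5 reads, against 2.72, 1.20 and 1.09 CPM in controls 1, 2 and 3, which is about 34, 12 and 14 reads. The groups do not overlap, but the adjusted p was 0.159 in limma. The log2 change of -0.74 ± 0.26 (SE) rests on a pseudocount of 1 CPM, which understates changes of low genes, and it was -1.37 with a pseudocount of 0.1 CPM. A library with no read would lie below 0.199 to 0.299 CPM, the value of 3 reads, a limit for counting error only.

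The Mef2 genes were all well measured and none passed. Mef2a (chromosome 7, 67231163 to 67372858) was the 1 member higher in every mutant library, at 165, 153 and 147 CPM in mutants 5, 6 and 7, against 137, 127 and 133 CPM in controls 1, 2 and 3 (log2 change 0.22 ± 0.08, adjusted p = 0.182, limma). Mef2d (chromosome 3, 88142372 to 88172086) was lower in every mutant library, at 47.5, 44.3 and 43.1 CPM in mutants, against 55.5, 56.4 and 52.5 CPM in controls (log2 change -0.28 ± 0.09, adjusted p = 0.133, limma). Both differences are small beside those of Pax7 and Myog, with 95% fold intervals of 1.02 to 1.33 for Mef2a and 0.715 to 0.947 for Mef2d. Mef2a overlaps Lysmd4, among others, and Mef2d overlaps 1700113A16Rik on the opposite strand, and without stated strand in the counting such reads cannot be told apart.

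Mef2c (chromosome 13, 83504034 to 83667080) had the highest CPM of the 9. It measured 189, 191 and 153 CPM in mutants 5, 6 and 7, against 367, 165 and 263 CPM in controls 1, 2 and 3. Control 2 lies among the mutants and controls 1 and 3 lie above them (log2 change -0.51 ± 0.25, SE, adjusted p = 0.273, limma). Without control 2 the log2 change was -0.81 (adjusted p = 0.0570), and without control 1 it was -0.24. The 10 endothelial markers, a second tissue of Mef2c, summed to 261 to 360 CPM in mutants and 225 to 356 CPM in controls and none passed (0 by limma at an unadjusted p below 0.05), and their part in the Mef2c values was not tested.

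At an unadjusted p below 0.05, limma gave 7 of the 9, 6 lower and Mef2a higher, beside 21.4% of all genes (8.07% lower and 13.4% higher). The same 7 had groups that do not overlap, where 27.8% of all genes did, 10.8% lower and 17.1% higher.

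**Figure D2:**
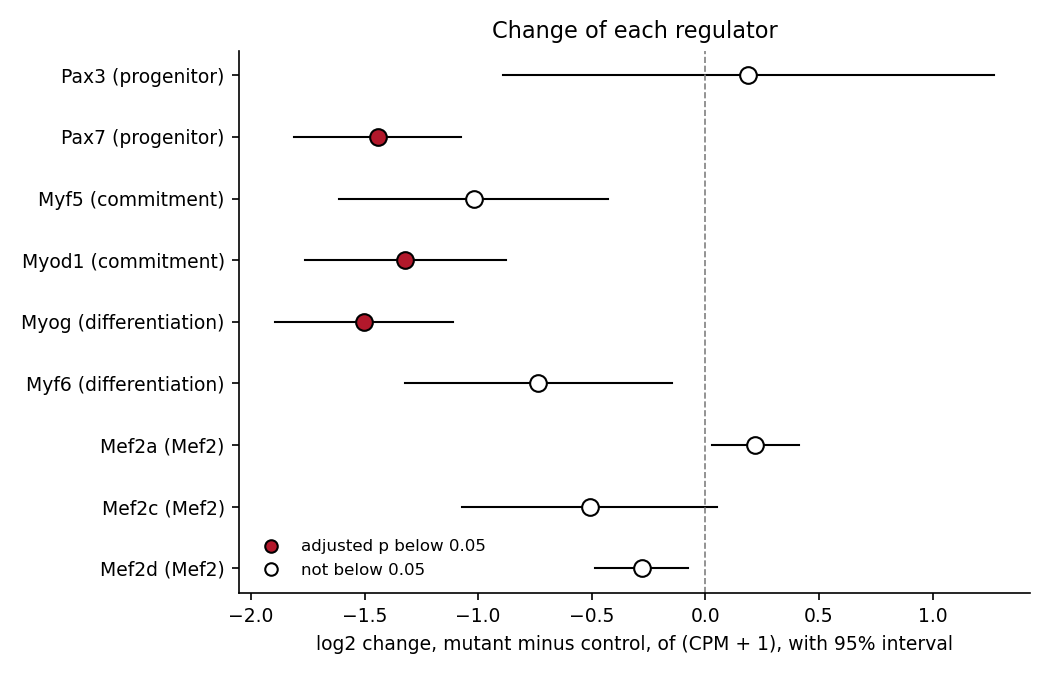
Log2 change of (CPM + 1), mutant minus control, of each regulator with its 95% interval from limma, ordered from progenitor to Mef2 genes; filled points passed an adjusted p of 0.05. Pax7, Myod1 and Myog are filled at -1.44, -1.32 and -1.50, and the interval of Pax3 spans 0.

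All 3 calls were lost with sex, read from Xist, as a covariate, and with a prior variance without trend. Xist stood at 2054 CPM in mutant 7 and 1188 CPM in control 3, and at 13.1 to 17.3 CPM in the other libraries. The sex covariate left the log2 changes of Pax7, Myod1 and Myog as they were, with adjusted p of 0.0519, 0.0622 and 0.0519 (limma). Leaving out single libraries ended most of the calls. Pax7, Myod1 and Myog were all 3 called without control 2 and none was called without control 1, control 3, mutant 5, mutant 6 or mutant 7. Their log2 changes ranged between -1.52 and -1.36 for Pax7, -1.54 and -1.17 for Myod1 and -1.71 and -1.37 for Myog, and the adjusted p reached at most 0.130, 0.151 and 0.130.

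Whether the stages of the cascade differed from one another in their change was examined by the ratio of 2 regulators within each library. A scaling common to both genes cancels in the plain ratio of CPM, but not fully on the log2(CPM + 1) scale where a gene is low, as Myf5 and Myf6 are. The 10 ratios were compared by an exact two-sided permutation test over the libraries, which with 3 against 3 cannot give a p below 0.1. On the log2(CPM + 1) scale, Myod1 over Pax7 averaged 1.02 ± 0.15 in mutants and 0.90 ± 0.31 in controls (SD, n = 3 each, exact permutation p = 0.6). Myog over Pax7 averaged 2.10 ± 0.19 in mutants and 2.16 ± 0.27 in controls (exact permutation p = 0.8), and the sign of that difference turned with settings. Myf5 over Myod1 averaged -2.04 ± 0.11 in mutants and -2.34 ± 0.32 in controls (exact permutation p = 0.3), and Myf5 over Pax7 -1.02 ± 0.09 in mutants and -1.44 ± 0.51 in controls (exact permutation p = 0.4). The Myf5 over Myod1 difference of 0.30 was 0.125 without control 3 and 0.0455 with a pseudocount of 0.1 CPM. The groups overlap in these 4 ratios, which at this sample size does not show that the genes changed alike.

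Myog over Myod1 was the tightest of the ratios. In plain CPM it was 2.26, 2.13 and 2.33 in mutants 5, 6 and 7, against 2.36, 2.52 and 2.51 in controls 1, 2 and 3. The 2 groups just miss each other, with a log2 difference of -0.18 and an exact permutation p of 0.1, the smallest the design allows, and 0.167 adjusted over the 10 ratios. As shares of the summed CPM of the 4 myogenic regulatory factors, Myog made up 64.7 ± 1.38% in mutants and 66.7 ± 1.96% in controls (SD, n = 3 each). Myod1 made up 28.9 ± 0.777% in mutants and 27.1 ± 0.395% in controls, Myf5 4.77 ± 0.413% in mutants and 4.56 ± 1.22% in controls, and Myf6 1.68 ± 0.628% in mutants and 1.70 ± 0.637% in controls. The shares of Myog, Myf5 and Myf6 overlap between the groups and those of Myod1 do not.

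The Mef2 genes were next set against Myog, and Pax3 against Pax7. Mef2a over Myog, in plain CPM, was 6.43 to 8.22 in mutants and 1.83 to 2.73 in controls, Mef2d over Myog 1.88 to 2.37 in mutants and 0.737 to 1.21 in controls, and Mef2c over Myog 6.67 to 9.45 in mutants and 3.55 to 4.88 in controls. Pax3 over Pax7 was 1.13 to 4.02 in mutants and 0.208 to 1.02 in controls. Each of these 4 had the smallest exact permutation p the design allows, 0.1 (0.167 adjusted over the 10 ratios). For Mef2a over Myog this was fixed in advance, since Mef2a was higher and Myog lower in every mutant library. All 3 Mef2 ratios carry the fall of Myog already given. The exact permutation p of Pax3 over Pax7 was 0.3 without control 3 and 0.2 without mutant 5, 6 or 7. That of Mef2d over Myog was 0.2 without mutant 5. Myf6 over Myog reached an exact permutation p of 0.1 on the log2(CPM + 1) scale as well, but 0.7 with a pseudocount of 0.1 CPM. Its plain ratios overlap (0.0145 to 0.0325 in mutants and 0.0155 to 0.0361 in controls). Among the 3 Mef2 genes, Mef2c made up 47.0 ± 2.34% of their summed CPM in mutants and 57.2 ± 9.16% in controls, and Mef2a 41.1 ± 1.74% in mutants and 30.2 ± 5.97% in controls.

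**Figure D3:**
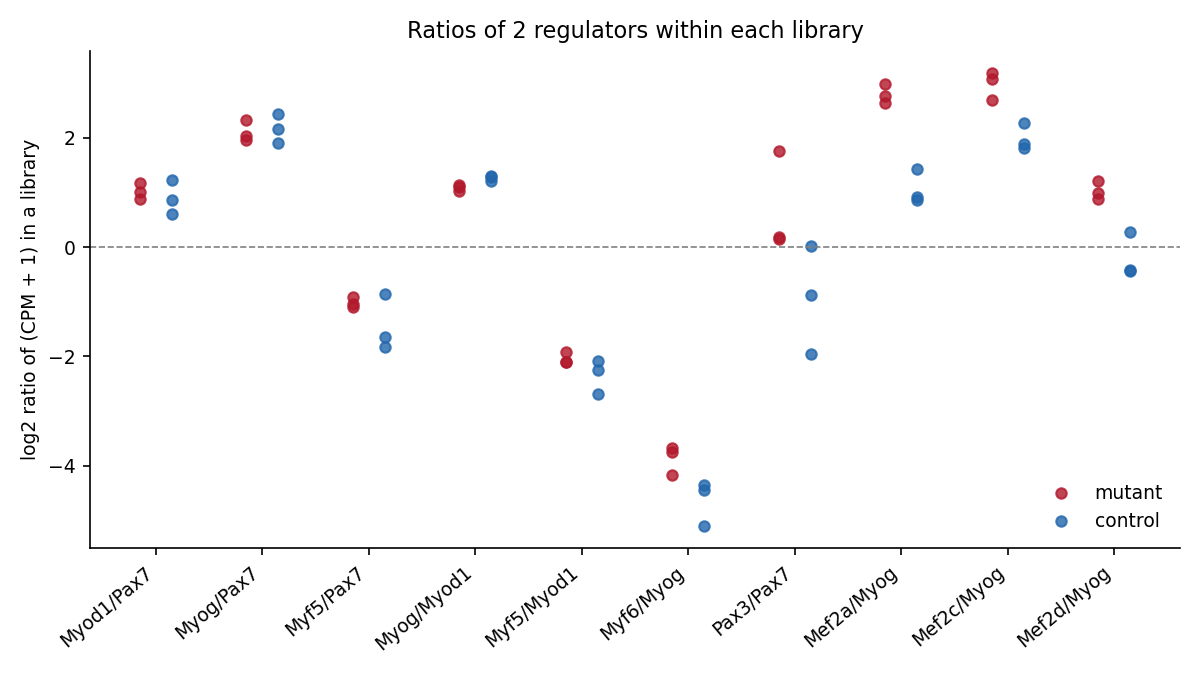
Log2 ratio of (CPM + 1) of 2 regulators in each library, mutants left of controls for each of the 10 ratios. Ratios among Pax7, Myf5 and Myod1 overlap between the groups, while those of the Mef2 genes over Myog lie higher in every mutant library.

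Compared per length of exon, Myog stood highest. In CPM per kb of annotated exon, mutants had 14.4 ± 0.950 for Myog, 11.3 ± 1.38 for Mef2c, 10.5 ± 0.618 for Mef2a, 7.51 ± 0.382 for Mef2d and 5.17 ± 0.361 for Myod1 (SD, n = 3), and under these Pax3 at 1.37 ± 0.936, Myf5 at 0.760 ± 0.0259, Pax7 at 0.725 ± 0.0706 and Myf6 at 0.440 ± 0.154. Controls had 42.9 ± 10.3 for Myog, 16.9 ± 6.41 for Mef2c, 14.1 ± 3.72 for Myod1, 9.16 ± 0.336 for Mef2d and 9.04 ± 0.348 for Mef2a, then 2.27 ± 0.272 for Pax7, 2.14 ± 0.9749 for Myf5, 1.32 ± 0.721 for Myf6 and 1.18 ± 0.720 for Pax3. Myod1 stood below all 3 Mef2 genes in mutants and above Mef2a and Mef2d in controls. In mutants the ranges of 2 neighbouring pairs in this order overlap, Mef2c with Mef2a and Myf5 with Pax7. In controls Mef2c overlaps Myod1, Mef2d overlaps Mef2a, and Pax7, Myf5, Myf6 and Pax3 each overlap the next. The length is the union of all annotated exons, long for Mef2a and Mef2c (14.7 and 15.7 kb), so the level of a gene that uses only some of them is understated.

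**Figure D4:**
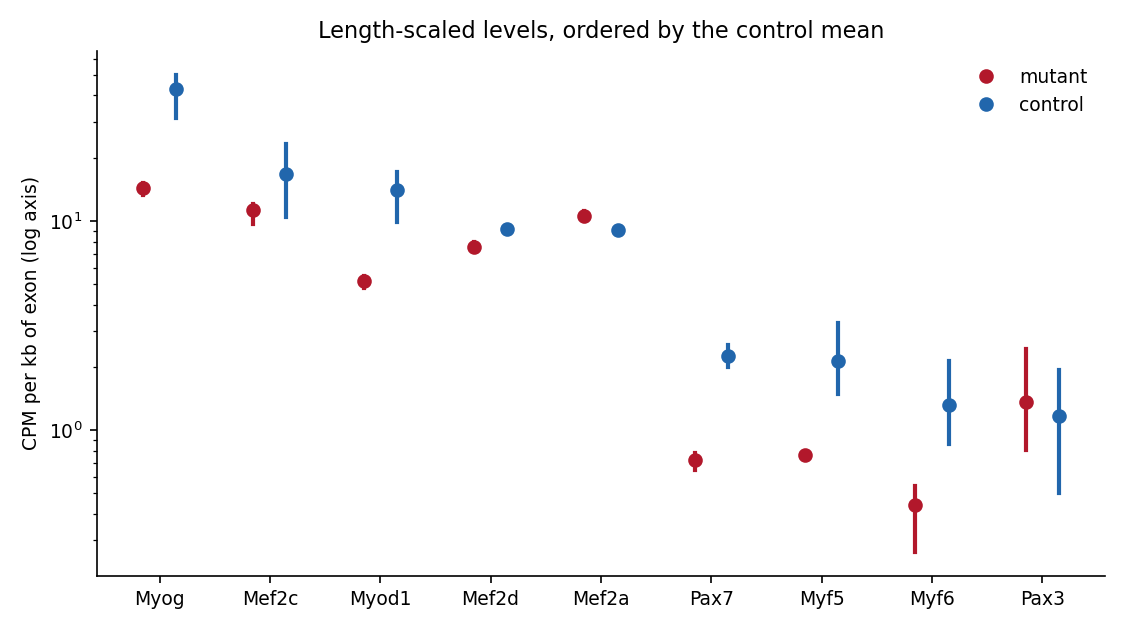
Level of each regulator in CPM per kb of exon, on a log axis, mutant left of control; points are means and lines run from the lowest to the highest of the 3 libraries. Myog is highest in both groups, and Myod1 lies below the Mef2 genes in the mutants.

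E proteins are the partners of the myogenic factors on DNA. None of the 3 E proteins passed (0 by limma at an unadjusted p below 0.05): Tcf3 averaged 172 CPM in mutants and 188 CPM in controls, Tcf4 379 CPM in mutants and 414 CPM in controls, and Tcf12 246 CPM in mutants and 262 CPM in controls. Of 16 inhibitors of myogenic factor activity, such as the Id proteins that sequester E proteins, none passed, with 7 lower and 0 higher by limma at an unadjusted p below 0.05, beside 8.07% lower and 13.4% higher over all genes. The smallest p among them was that of Msc, musculin, a helix-loop-helix repressor that marks precursors of the branchial arch muscles, at 4.09, 4.25 and 2.13 CPM in mutants 5, 6 and 7, against 8.53, 8.08 and 10.4 CPM in controls 1, 2 and 3 (log2 change -1.19 ± 0.23, adjusted p = 0.0627, limma). No mutant reached the lowest control.

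Coregulators of MEF2 and the myogenic factors did not pass either. Of 17, 0 were called and 4 were lower and 0 higher by limma at an unadjusted p below 0.05, where 8.07% of all genes were lower and 13.4% higher. Mapk7 (ERK5), a kinase that acts on MEF2 proteins, had the smallest p, with 33.7 ± 2.56 CPM in mutants and 44.3 ± 1.23 CPM in controls (SD, n = 3 each, adjusted p = 0.0903, limma). The list median was a log2 change of -0.03.

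Genes that act upstream of the cascade, including those of head muscle, also did not pass. Of 20, 0 were called, with 4 lower and 1 higher by limma at an unadjusted p below 0.05 (8.07% and 13.4% over all genes), and a median log2 change of -0.04. Six2, a homeobox factor of mesenchyme, had the smallest p, at 54.1 ± 3.92 CPM in mutants and 81.6 ± 17.7 CPM in controls (SD, n = 3 each, adjusted p = 0.108, limma). Many genes of this list are also expressed outside muscle. The head muscle factor Msc was listed with the inhibitors, so it is not in these counts or in the median. Tbx1 averaged 32.5 CPM in mutants and 26.7 CPM in controls (adjusted p = 0.491, limma). Tcf21 rested on about 2, 5 and 3 reads in mutants 5, 6 and 7 and on 11, 1 and 3 reads in controls 1, 2 and 3.

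Among 19 measured genes linked to muscle progenitors, Fgfr4 alone was called, and it fell. Fgfr4, an FGF receptor of embryonic muscle progenitors, measured 5.46, 5.17 and 5.10 CPM in mutants 5, 6 and 7, against 16.0, 17.7 and 13.9 CPM in controls 1, 2 and 3 (log2 change -1.43 ± 0.15, adjusted p = 0.0271, limma). Control 2 is here the highest control. Of the other genes 5 were lower and 1 higher at an unadjusted p below 0.05 (over all genes 8.07% lower and 13.4% higher), and the list median was -0.23.

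The genes that the cascade switches on lay lower throughout. Of 39 measured differentiation targets, 11 fell and 0 rose at an adjusted p below 0.05, beside 0.283% lower and 0.196% higher over all genes. All 39 were lower by limma at an unadjusted p below 0.05, where 8.07% of all genes were. Their median log2 change of -1.08 stands beside 0.04 over all genes. The list was chosen with earlier results of these data known, so its counts only describe it and are no independent support. All 13 skeletal muscle markers summed above are among these 39 targets, so the target list and the marker sum are not independent. Vgll2, a TEAD cofactor of muscle, measured 4.73, 5.78 and 4.64 CPM in mutants 5, 6 and 7, against 15.9, 15.8 and 13.8 CPM in controls 1, 2 and 3 (adjusted p = 0.0271, limma). Ryr1, the calcium release channel, measured 69.5, 79.5 and 75.9 CPM in mutants, against 153, 123 and 141 CPM in controls (adjusted p = 0.0276, limma). Tnni1, slow troponin I, measured 27.5, 29.3 and 27.0 CPM in mutants, against 89.7, 54.4 and 76.2 CPM in controls (adjusted p = 0.0276, limma), with control 2 again the lowest control. Of the other cell type lists, epithelial markers had 0 of 8 below 0 in log2 change (median 0.25, 0 called, 2 higher at an unadjusted p below 0.05) and summed to 1222 to 1828 CPM in mutants and 939 to 1574 CPM in controls. Of 5 measured cardiac and smooth muscle markers, 1 was called lower (Acta2, named after its value was seen, which embryonic skeletal muscle also makes) and 3 were lower at an unadjusted p below 0.05, with sums of 79.0 to 94.6 CPM in mutants and 151 to 232 CPM in controls. Osr2, the gene after which the Cre is named, measured 13.0, 19.4 and 15.9 CPM in mutants 5, 6 and 7, against 34.5, 56.2 and 49.9 CPM in controls 1, 2 and 3 (log2 change -1.47 ± 0.20, adjusted p = 0.0285, limma). Of 8 palatal mesenchyme markers, Osr2 alone was called, and 5 were below 0 in log2 change (median -0.08). They summed to 4152 to 6370 CPM in mutants and 4217 to 6434 CPM in controls. Of 8 macrophage markers 0 were called and 7 were below 0 in log2 change (median -0.29). Their sums were 78.1 to 99.1 CPM in mutants and 98.8 to 111 CPM in controls. The part of these differences in the muscle values was not tested.

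**Figure D5:**
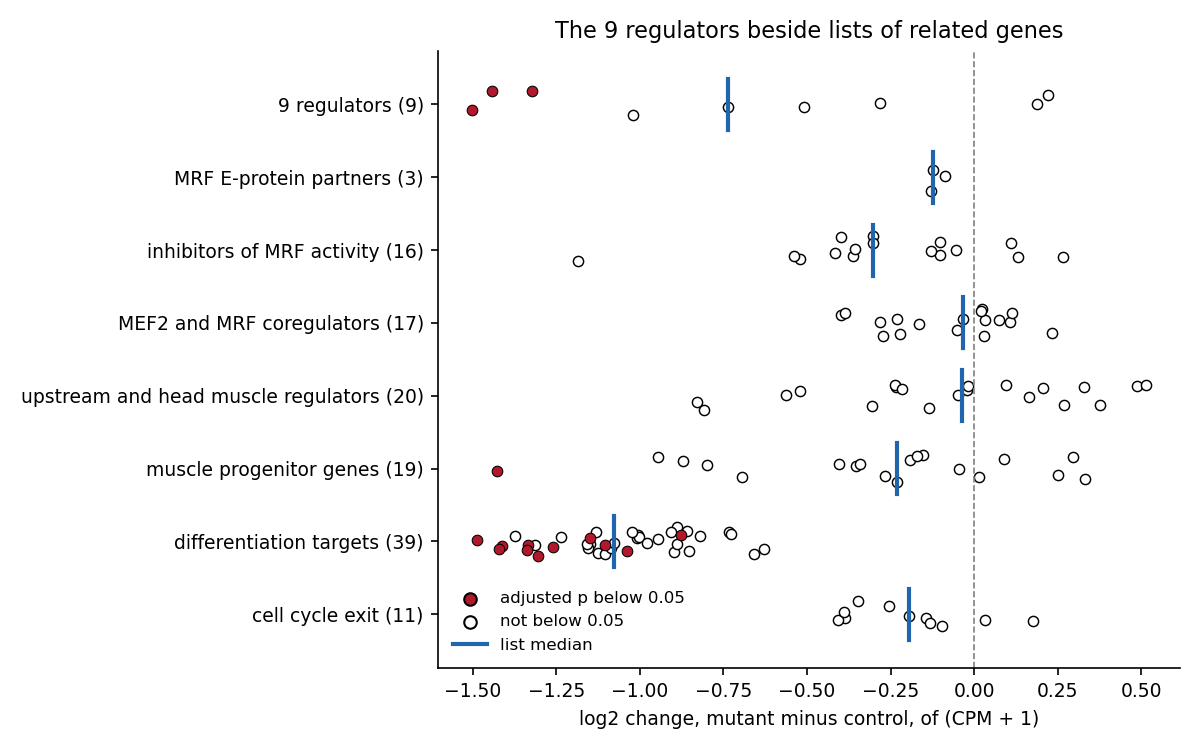
Log2 change of (CPM + 1), mutant minus control, of every measured gene in the set of 9 regulators and in 7 related lists; filled points passed an adjusted p of 0.05 and the blue bar is the list median. Differentiation targets lie left of 0 in every case, around -1.08, while coregulators and upstream regulators lie around -0.03 and -0.04.

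The genes most like Pax7 and most like Myog over the 6 libraries were sought among 10038 genes with a mean of at least 10 CPM, by the root mean square distance between profiles of log2(CPM + 1) after centring each gene. The nearest to Pax7 were Ablim3, an actin-binding protein (distance 0.15), Vgll2 (0.16), Myl4, an embryonic myosin light chain (0.18), and Cdh15, the muscle cadherin (0.18). The nearest to Myog were Acta2, smooth muscle actin that embryonic skeletal muscle also makes (0.09), Tnni1 (0.11), Synpo2l, a sarcomeric actin-associated protein (0.13), and Ablim3 (0.14). Myog lay at 0.10 from Myod1 and 0.19 from Pax7, and Pax3 at 1.13 from Pax7. These points share 6 libraries in 2 groups, so a small distance reflects the group difference first. Vgll2 met the limit of 10 CPM only through the controls, with means of 5.05 CPM in mutants and 15.2 CPM in controls.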

How the data were processed

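RNA was sequenced from soft palate at E14.0, 3 mutant and 3 control libraries, and, per the submitters' processing notes, STAR and the build mm10 were used. The deposited table holds CPM of 21938 genes, to which the authors added a constant of 0.0001, as found from the values; it was taken off. For counting, annotation, strand and library kit the sources used here give nothing. A second deposited table repeats some genes with the same values. All rows and columns matched the labels (0 left unused). Of values under 20 reads, 63.9 to 68.5% were whole reads within 0.02 of a read, so reads were not recovered and no count model was fitted.

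The groups were compared on log2(CPM + 1) with limma 3.58.1 (R 4.3.3), with an intensity trend, no filter, and Benjamini-Hochberg adjustment over all genes; the threshold was 0.05. Ratios were tested by exact permutation in Python 3.11.15. The limma fit, not the permutation test, was checked on simulated data, with the same spread set for every gene beyond counting error. Genes that spread more within a group, as several did in the controls here, are not covered by that check. Positions come from GENCODE vM21 (GRCm38, the assembly mm10 names), by symbol, promoters from RefSeq.

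The 9 members and all lists were chosen with earlier results of these data known. The text names the 9, the 3 E proteins, up to 3 called genes of each other list or, with none called, the smallest p, and the 4 nearest profiles to Pax7 and Myog. Tbx1 and Tcf21 are named for their part in head muscle, after their values were seen. Alternatives changed the pseudocount, filter, scaling, prior variance, threshold, added a sex covariate (Xist above 100 CPM), and left out each library.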

Additional observations from a re-analysis of the deposited data

How the results depend on the processing

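The call depended on the library set and the variance model. Against 105 genes and 3 of the 9 regulators, limma called 0 genes and 0 regulators with a prior variance without trend (4516 genes and 6 regulators at an unadjusted p below 0.05) and 0 and 0 with sex read from Xist as a covariate (4356 and 7), 174 genes with a robust prior, and 999 at an adjusted p below 0.1, Myf5 joining Pax7, Myod1 and Myog. Leaving out 1 library gave 0 to 452 genes and 0 to 3 regulators: 452 and 3 without control 2, 2 and 0 without mutant 7, and 0 without each of the others (3806 to 4100 genes at an unadjusted p below 0.05). The cause was not tested. A pseudocount of 0.1 CPM, the filter and the scaling gave 95, 135 and 130 genes with the same 3 regulators. The changed prior variances, the sex covariate and the changed threshold left each log2 change as it was, so their agreement was fixed in advance. Counting these, of 117 values of single regulators under 13 alternatives, 115 kept their direction. The exceptions were Pax3, at -0.24 without control 3 and -0.28 without mutant 7 (from -0.28 to 0.59 with each library left out).

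Of the ratios, the difference of Myog over Pax7 turned to 0.0802 with a pseudocount of 0.1 CPM, and ranged from -0.194 to 0.0742 with 1 library left out; Myod1 over Pax7 ranged from -0.0253 to 0.282. No other ratio turned. With 2 against 3 libraries an exact test cannot go below p = 0.1. Depth limits Myf6 and Myf5 most. No paired analysis was possible because the groups share no replicate number.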

Other observations

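Genes listed for cell cycle exit, a step that the myogenic factors are known to bring about in myoblasts, were not called. The list mixes inhibitors of division with D cyclins and Cdk4, which drive it, so its counts and median do not describe exit alone. Of 11, 0 passed and 4 were lower and 0 higher by limma at an unadjusted p below 0.05 (8.07% and 13.4% over all genes), with a median log2 change of -0.20. The 4 lower genes were Ccnd1, Ccnd3 and Cdk4, which drive division, and the inhibitor Cdkn1b. Ccnd3, a D cyclin, had the smallest p, at 105, 126 and 100.2 CPM in mutants 5, 6 and 7, against 147, 141 and 145 CPM in controls 1, 2 and 3 (log2 change -0.39 ± 0.10, SE, adjusted p = 0.0934, limma). No mutant reached the lowest control. These genes are expressed in most dividing tissue, not in muscle alone.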
